A study of Rattus norvegicus with 6 samples.

Results

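The genes described here are the Notch receptors, Jagged ligands, the transcription factor Rbpj and the Hes and Hey target genes of cultured vascular smooth muscle (VSM) cells. They were taken from the count table by gene symbol. Of 10 genes sought (Notch1, Notch2, Notch3, Jag1, Jag2, Hes1, Hey1, Hey2, Heyl and Rbpj), 9 were found among the 14475 genes of the table, and Jag2 was not analysed here. The question was whether their RNA differed between VSM cells of young and old rats.

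Notch receptors are single-pass membrane proteins that are cleaved when a Jagged or Delta ligand on a neighboring cell pulls on them. The freed intracellular part enters the nucleus, binds the DNA-binding protein RBPJ and switches on target genes, of which the Hes and Hey transcriptional repressors are the best known. In the arterial wall, Notch3 is the receptor typical of smooth muscle cells and pericytes, Jag1 is both a ligand and a gene that Notch signaling can induce in the next cell, and the pathway is known for its part in smooth muscle differentiation.

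VSM cells were isolated from the soleus feed artery (SFA), which supplies the soleus muscle, of male Fischer (F344) rats aged 4 months (young, n = 3) or 24 months (old, n = 3). They were grown in serum-containing medium, and 1 library of polyadenylated RNA was sequenced per culture, each from a different rat. No genetic change, drug or mechanical stimulus is named for these 6 cultures, which differ by the age of the rat alone as far as the labels go. They are cultured cells, so they lack the blood flow, pressure and endothelial ligands of the vessel, and the passage number is not given in the sources used here.

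Total counts on genes ranged from 44235674 to 59700887 per library. Values are given as CPM, counts relative to library size after TMM normalization, which corrects for differences in RNA composition. CPM was compared between libraries for 1 gene at a time and never between genes, because no transcript lengths were used. In each library 68.7% to 71.1% of the counts between 1 and 19 were even. The total counts also exceed the reads per sample that the Methods give, so a fragment was counted more than once on average. The counting intervals are therefore too narrow, by an amount that was not tested. If both mates of each read pair were counted, a count of 2 is a single fragment. The 10 smooth muscle markers examined were all detected in each library, Des at 2.99 CPM or less, and their summed level ranged from 12188 to 22806 CPM in young and from 3803 to 6003 CPM in old VSM cells. In bulk RNA, fewer cells of a type and less RNA per cell cannot be told apart.

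Most of the Notch genes had lower mean levels in old VSM cells, with a wide spread between cultures of the same age. Mean levels of 7 of the 9 genes were lower in old, compared with 48% of all genes, and 6 had a log2 fold change of -1 or lower, compared with 6.34% of all genes. The median log2 fold change was -1.92 over the 9 genes and 0.02 over all genes. These values rest on young replicate 3, without which 5 genes were lower (48% of all genes), 2 were at -1 or lower (5.86% of all genes) and the median was -0.51. With edgeR's quasi-likelihood test adjusted over all genes, 0 of the 9 had an adjusted p under 0.05 together with a fold change of 2 or more in size (background 0.00691%, a single gene), and 3 had an unadjusted p under 0.05 (Notch1, Hey2 and Heyl, all lower in old, against a background of 22.6% in either direction and 11.5% for lower genes). The DESeq2 Wald test on the same counts called those 3 genes as well (background 5.56% in either direction and 3.31% for lower genes), with 4 at an unadjusted p under 0.05 (background 26%), and limma-voom called 0, with 2 at an unadjusted p under 0.05 (background 23.1%). In 2 genes, Notch1 and Hey2, the 3 old libraries all lay below the 3 young ones, compared with 14.7% of all genes for that direction, 14.5% for the opposite one and 29.2% for either. These 2 of 9 are close to the background share. An exact permutation test of 3 against 3 libraries cannot give a two-sided p under 0.10.

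**Figure D1:**
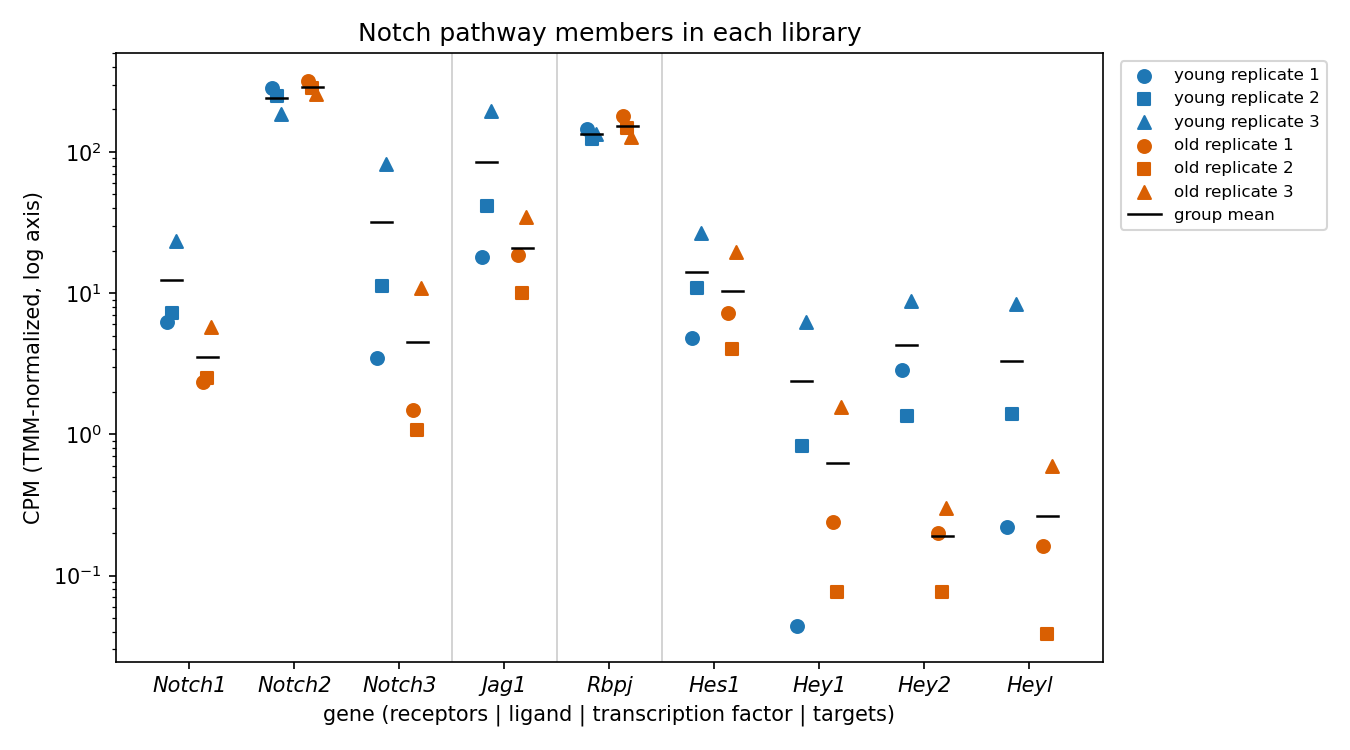
Level of each of the 9 Notch genes in each library, in CPM on a log axis, with young libraries in blue, old libraries in orange, a marker shape for each replicate number and a black line at the group mean (n = 3). Young replicate 3 and old replicate 3 (triangles) are the highest of their groups for 7 genes, while Notch2 and Rbpj span 1.72-fold and 1.44-fold over all libraries, and the young and old points of Notch1 and Hey2 do not overlap.

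Among the receptors, Notch3 (ENSRNOG00000004346) varied most. Its level was 3.48, 11.2 and 81.6 CPM in young replicates 1, 2 and 3 and 1.49, 1.08 and 11.0 CPM in old replicates 1, 2 and 3. Old replicate 3 thus lay at the level of young replicate 2 and above young replicate 1, and the groups overlap. The highest young library had 23.5 times the level of the lowest (95% exact interval from counting error alone 20.0 to 27.7), a range wider than that of 99.8% of the 12248 genes with an average of at least 1 CPM, for which the median range among young libraries was 1.21-fold. Young cells averaged 32.1 ± 43.1 CPM and old cells 4.51 ± 5.59 CPM (SD, n = 3 each), with a log2 fold change of -2.83 ± 1.39 (± SE, the standard error; edgeR adjusted p = 0.275). This difference rests on young replicate 3. It was -0.71 without that library, and without old replicate 3 it was -4.64.

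Notch1 (ENSRNOG00000019322), the receptor best known from endothelial and progenitor cells, had 6.29, 7.20 and 23.5 CPM in young and 2.33, 2.50 and 5.80 CPM in old libraries. Each old library lay below each young one, although old replicate 3 came close to young replicate 1. Young cells averaged 12.3 ± 9.68 CPM and old cells 3.55 ± 1.96 CPM (SD, n = 3 each), which gave a log2 fold change of -1.80 ± 0.63 (SE; adjusted p 0.177 in edgeR, 0.0291 in DESeq2). Without young replicate 3 the log2 fold change was -0.93. The DESeq2 call was lost without young replicate 3 (adjusted p = 0.274), old replicate 1 (0.0836) or old replicate 2 (0.163).

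Notch2 (ENSRNOG00000018835), the third receptor and also expressed in vessel walls, did not share this pattern. It had 283, 248 and 186 CPM in young and 319, 282 and 258 CPM in old libraries, and young replicate 3, the highest library for Notch1 and Notch3, was the lowest for Notch2. Young cells averaged 239 ± 49.3 CPM and old cells 286 ± 31.1 CPM (SD, n = 3 each), and the log2 fold change of 0.26 ± 0.18 (SE; edgeR adjusted p = 0.405) was smaller than the spread between young replicates. Notch4, a receptor mainly of endothelial cells, was between 0.905 and 1.81 CPM in the 6 libraries, from 45 to 109 counts, and had a log2 fold change of -0.40 (edgeR adjusted p = 0.469).

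The ligand Jag1 (ENSRNOG00000007443) had 17.9, 41.6 and 196 CPM in young and 18.5, 9.98 and 34.4 CPM in old libraries. Young replicate 3 stood well above the other 5 libraries, while young replicate 1 lay below 2 of the old ones, so the groups overlap. Young cells averaged 85.1 ± 96.5 CPM and old cells 21.0 ± 12.4 CPM (SD, n = 3 each), and the log2 fold change was -2.02 ± 0.92 (SE; edgeR adjusted p = 0.247). Without young replicate 3 it was -0.51. DESeq2, which did not call Jag1 with all libraries (adjusted p = 0.205), called it without young replicate 1 (adjusted p = 0.0125).

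Rbpj (ENSRNOG00000046327), which encodes the DNA-binding partner that all Notch receptors share, was the steadiest of the 9 genes. Its level was 145, 124 and 133 CPM in young and 179, 148 and 128 CPM in old libraries, within 1.44-fold over all 6. The averages of 134 ± 10.4 CPM in young and 151 ± 25.9 CPM in old cells (SD, n = 3 each) gave a log2 fold change of 0.17 ± 0.14 (SE; edgeR adjusted p = 0.489), and the groups overlap.

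Hey2 (ENSRNOG00000013364), a repressor typical of arteries and smooth muscle, showed the clearest separation by age of the Notch genes. Young libraries had 2.84, 1.35 and 8.79 CPM, from 128, 81 and 432 counts, and old libraries 0.201, 0.0770 and 0.299 CPM, from 10, 4 and 16 counts. The lowest young library was 4.51 times the highest old one (95% exact interval from counting error alone 2.62 to 8.26). Young cells averaged 4.32 ± 3.94 CPM and old cells 0.192 ± 0.111 CPM (SD, n = 3 each), which gave a log2 fold change of -4.47 with a standard error of 0.88. Its adjusted p was 0.0743 from edgeR, 1.38e-06 from DESeq2 and 0.128 from limma-voom. Whichever library was left out, the log2 fold change stayed between -4.94 and -3.42 with an edgeR adjusted p of at least 0.0693, and DESeq2 called Hey2 each time.

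Heyl (ENSRNOG00000015318), a close relative of Hey2 known as a target of Notch3, had 0.222, 1.40 and 8.37 CPM in young (10, 84 and 411 counts) and 0.161, 0.0385 and 0.597 CPM in old libraries (8, 2 and 32 counts). Old replicate 3 exceeded young replicate 1, so the groups overlap. Young cells averaged 3.33 ± 4.40 CPM and old cells 0.265 ± 0.294 CPM (SD, n = 3 each). The log2 fold change was -3.63 ± 1.44 (SE; adjusted p 0.209 in edgeR, 0.0300 in DESeq2), and -1.61 without young replicate 3. DESeq2 did not call Heyl when young replicate 2, young replicate 3, old replicate 1 or old replicate 2 was left out.

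Hey1 (ENSRNOG00000062882), the third gene of the family, had 2, 50 and 309 counts in the young and 12, 4 and 84 counts in the old libraries, or 0.0443, 0.831 and 6.29 CPM and 0.241, 0.0770 and 1.57 CPM. The range among young libraries was 142-fold, with a 95% exact interval from 39.0 to 1177 because the lowest rests on 2 counts. No direction with age can be read from these values, since the log2 fold change of -1.92 ± 1.59 (SE; edgeR adjusted p = 0.489) became 0.49 without young replicate 3.

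Hes1 (ENSRNOG00000001720), a repressor that many other signals also control, was between 4.78 and 26.5 CPM in young and between 4.00 and 19.6 CPM in old libraries. The group means of 14.0 ± 11.2 and 10.3 ± 8.26 CPM (SD, n = 3 each) differed by less than the spread within each group. The log2 fold change was -0.45 ± 0.77 (SE; edgeR adjusted p = 0.747) with all libraries and 0.39 without young replicate 3.

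**Figure D2:**
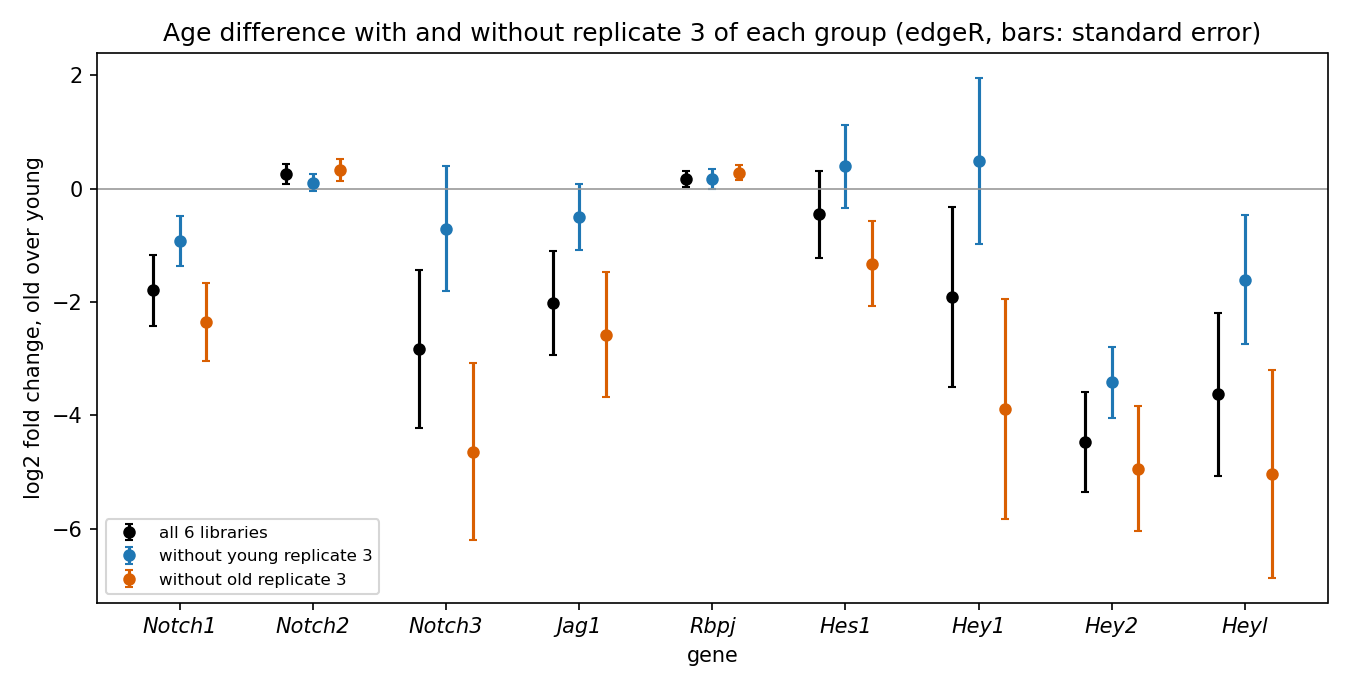
Log2 fold change of old over young VSM cells for each Notch gene from edgeR, with bars of 1 standard error, for all 6 libraries (black), without young replicate 3 (blue) and without old replicate 3 (orange). Without young replicate 3 the values of Notch3 and Jag1 move to -0.71 and -0.51 and those of Hes1 and Hey1 turn positive, whereas Hey2 stays at -3.42 or below.

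RBPJ binds DNA at the core TGGGAA, and promoter sequences were available from RefSeq (build GRCr8) for 8 of the 9 genes, Hey1 being the exception. The core was searched on both strands in the 250 bases before the transcription start, together with the longer form GTGGGAA, which contains it. Of the 33469 rat promoter windows in that set, 22.1% held TGGGAA at least once, 2.71% held it more than once and 5.27% held GTGGGAA. Hes1 and Hey2 held the core more than once and the longer form once each, an Rbpj promoter also held the core more than once, and the windows of Notch1, Notch2, Notch3, Jag1 and Heyl held none. The Hes1, Hey2, Notch3 and Heyl windows are printed to set the targets with the core beside Notch3 and Heyl, whose patterns across libraries were the most alike of the Notch genes that varied widely. Capitals mark TGGGAA or its reverse complement TTCCCA. The windows are chr11:84213046-84213295 (minus strand) for Hes1, chr1:28640850-28641099 (plus strand) for Hey2, chr7:11834586-11834835 (minus strand) for Notch3 and chr5:140793021-140793270 (plus strand) for Heyl, each written 5′ to 3′ toward the gene.
Hes1: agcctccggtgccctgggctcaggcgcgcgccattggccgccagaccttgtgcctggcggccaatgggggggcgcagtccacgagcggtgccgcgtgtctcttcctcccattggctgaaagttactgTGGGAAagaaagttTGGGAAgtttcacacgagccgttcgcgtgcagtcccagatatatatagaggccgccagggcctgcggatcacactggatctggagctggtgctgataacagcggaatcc
Hey2: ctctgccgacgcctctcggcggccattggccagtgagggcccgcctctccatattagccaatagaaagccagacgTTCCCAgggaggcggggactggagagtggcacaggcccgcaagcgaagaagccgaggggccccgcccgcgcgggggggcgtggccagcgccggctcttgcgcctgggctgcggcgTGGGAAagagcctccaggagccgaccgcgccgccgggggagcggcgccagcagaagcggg
Notch3: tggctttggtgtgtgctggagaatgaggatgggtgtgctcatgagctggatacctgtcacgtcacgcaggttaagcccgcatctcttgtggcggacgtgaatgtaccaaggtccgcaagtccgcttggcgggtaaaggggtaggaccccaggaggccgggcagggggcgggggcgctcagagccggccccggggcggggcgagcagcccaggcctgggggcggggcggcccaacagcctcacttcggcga
Heyl: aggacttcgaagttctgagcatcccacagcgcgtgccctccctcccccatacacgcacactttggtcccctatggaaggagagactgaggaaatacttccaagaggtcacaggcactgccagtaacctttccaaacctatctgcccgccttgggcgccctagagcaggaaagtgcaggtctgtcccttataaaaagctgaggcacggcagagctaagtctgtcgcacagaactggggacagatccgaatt

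In the Hes1 window the cores began 123 and 109 bases before the start, both on the strand of the gene. In that of Hey2 they began 175 bases before the start on the opposite strand and 60 bases before it on the strand of the gene. A match is a string of letters and not a measured binding site, and windows without a match say nothing about sites elsewhere.

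The spread within age groups was shared between Notch genes. Young replicate 3 was the highest young library and old replicate 3 the highest old library for the same 7 genes (Notch1, Notch3, Jag1, Hes1, Hey1, Hey2 and Heyl). Among all genes the first held for 37.8%, the second for 34.7% and both for 14.2%, and both held for 20% of the 1165 genes whose highest young library was at least 3 times the lowest. Young replicate 1 was the lowest young library for 6 of the 7, all but Hey2, and old replicate 2 the lowest old library for 6, all but Notch1. The shares of all genes with these lowest libraries were not computed, so how unusual they are cannot be said. This order was noticed after the values had been seen and was not tested. In 4 of the 9 genes the young libraries spanned at least 10-fold (1.11% of all genes) and in 7 at least 3-fold (1165 of all 14475 genes). In that set of 1165 genes 21.5% had a log2 fold change of -1 or lower.

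The likeness of patterns was measured as the root mean square difference of log2 CPM over the 6 libraries, after the mean of each gene was subtracted. Nearest to Notch3 among 12256 genes was Heyl, at 0.449, where the median over all genes was 2.10. Heyl was followed by a gene without symbol (ENSRNOG00000063720, 0.452), Prima1, which encodes the membrane anchor of acetylcholinesterase (0.567), the crystallin gene Cryba4 (0.646) and Olfml2b, which encodes an olfactomedin-like matrix protein (0.760). Heyl had 10, 8 and 2 counts in young replicate 1, old replicate 1 and old replicate 2. The gene without symbol had 0 CPM in old replicate 2. The order of these nearest genes thus rests partly on few counts and on the prior count. Nearest to Jag1, where the median was 1.38, were Akap6, which encodes a kinase anchoring protein (0.166), the ubiquitin ligase gene Rnf180 (0.308), the kinase gene Stk26 (0.362), Gucy1b1, a subunit of the nitric oxide receptor guanylyl cyclase (0.425), and the sodium channel gene Scn1a (0.428). These genes were picked for their likeness, so their values are a description. Within the 9 Notch genes the closest pair was Notch2 and Rbpj (0.185), both nearly flat, followed by Notch3 and Heyl.

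**Figure D3:**
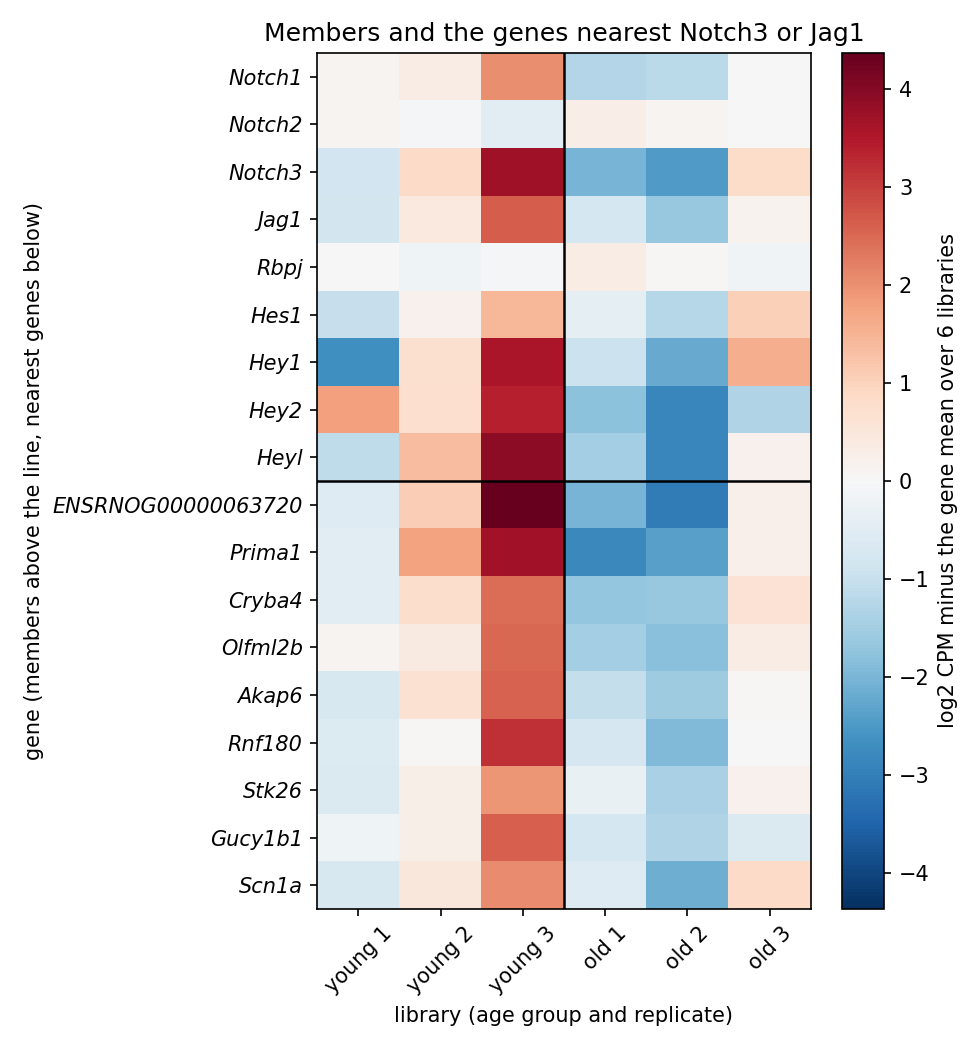
Log2 CPM of each gene in each library after subtraction of its mean over the 6 libraries, red above and blue below that mean, for the 9 Notch genes (above the line) and for the genes nearest to Notch3 or Jag1 (below). Young replicate 3 is red for every gene but Notch2 and Rbpj, which are nearly flat, and Hey2 is red in the 3 young and blue in the 3 old libraries.

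Most of the other pathway genes had log2 fold changes close to 0. Of 66 further genes listed by role, 57 were measured, 33 with a higher and 24 with a lower mean in old, and their median log2 fold change was 0.05. In edgeR 0 of the 57 passed both thresholds, with 5 higher and 5 lower at an unadjusted p under 0.05 (background 11.2% and 11.5%). DESeq2 called 3 of the 57, all lower (Acta2, Myh11 and Neurl1b), against a background of 5.56% in either direction and 3.31% for lower genes. None of the 9 genes for receptor cleavage, which include the proteases Adam10 and Adam17 and the γ-secretase subunits, and none of the 13 corepressors had an unadjusted p under 0.05 in edgeR. The same held for the 4 measured sugar transferases, and of these Lfng, which modifies Notch receptors and changes their response to ligands, had 7.75, 5.82 and 13.4 CPM in young and 9.37, 3.16 and 2.18 CPM in old libraries (log2 fold change -0.88, adjusted p = 0.407 from edgeR). Notch4, Dlk2 and Dner, the 3 measured of 7 other receptors and ligands, did not reach it either. Dll1, Dll3, Dll4, Dlk1, Mfng, Dtx1, Hes2, Hes3 and Hes5 were not analysed here.

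The Mastermind coactivators, which act with Notch and RBPJ on DNA, differed in direction, and neither of the next genes passed the edgeR threshold. Maml2 was between 70.3 and 80.4 CPM in young and between 40.8 and 61.7 CPM in old libraries, a log2 fold change of -0.63 ± 0.17 (SE; adjusted p 0.119 in edgeR, 0.0178 in DESeq2). Maml3 was between 7.12 and 9.75 CPM in young and between 11.4 and 12.9 CPM in old, a log2 fold change of 0.63 ± 0.17 (SE; adjusted p 0.119 in edgeR, 0.0161 in DESeq2). The fold changes of Maml2 and Maml3 were too small for a call in DESeq2. In both genes the groups did not overlap, whereas in Maml1 they did. Among the 57 further pathway genes, all old libraries lay above the young ones in 6 and below them in 4. For all genes these shares were 14.5% and 14.7%, so such separation was not more frequent in this list.

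Among genes for receptor and ligand turnover, Neurl1b, an E3 ligase that promotes ligand endocytosis, had 2.06, 1.58 and 6.80 CPM in young and 1.05, 0.154 and 0.205 CPM in old libraries (log2 fold change -2.89 ± 0.93, SE; adjusted p 0.157 in edgeR, 0.0118 in DESeq2). The old libraries held only 52, 8 and 11 counts of Neurl1b. Young replicate 3 was again the highest library. The Deltex genes Dtx2 and Dtx3 and the endocytic kinase gene Aak1 were higher in old in all 3 libraries, with log2 fold changes of 0.45, 0.57 and 0.28 (adjusted p = 0.177, 0.157 and 0.168 from edgeR).

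Of 8 genes listed as other targets 5 were measured, 2 with a higher and 3 with a lower mean in old. Nrarp, a feedback inhibitor induced by Notch, had 0.222, 0.332 and 1.34 CPM in young and 0.0402, 0.231 and 0.112 CPM in old libraries, with a log2 fold change of -2.28 ± 0.90 (SE; edgeR adjusted p = 0.207) on 66 counts or fewer. Hes6, which antagonizes Hes1, was between 14.6 and 18.0 CPM in young and between 20.9 and 34.7 CPM in old, a log2 fold change of 0.76 ± 0.20 (SE; adjusted p 0.119 in edgeR, 0.0184 in DESeq2). That fold change was too small for a call.

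Of the smooth muscle genes known as Notch targets, Acta2 (SM α-actin) and Myh11 (smooth muscle myosin) lay below the young range in each old library. Their log2 fold changes were -2.27 and -3.08 (adjusted p 0.0636 and 0.0648 in edgeR, 2.7e-08 and 4.6e-08 in DESeq2). Pdgfrb, a growth factor receptor gene that Notch3 is known to induce, had 627, 832 and 851 CPM in young and 502, 977 and 1411 CPM in old libraries, and its log2 fold change of 0.32 ± 0.37 (SE; edgeR adjusted p = 0.613) was within the spread between old replicates.

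**Figure D4:**
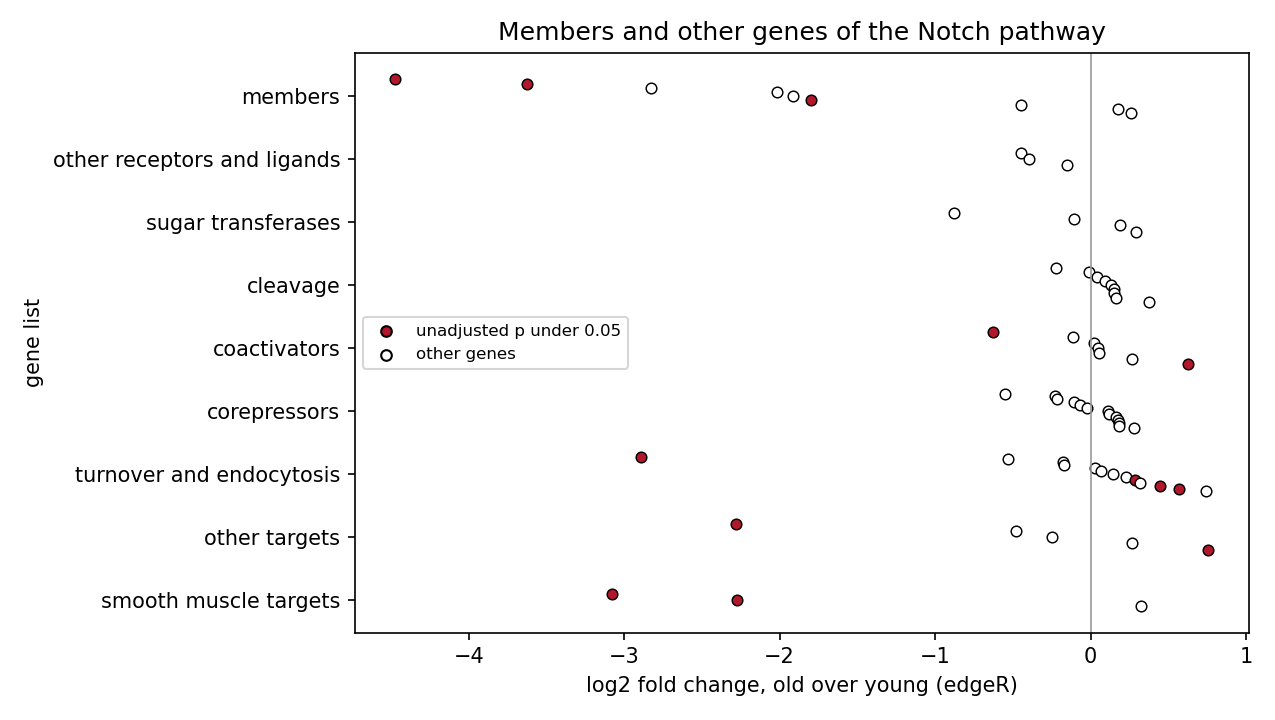
Log2 fold change of old over young VSM cells (edgeR) for the 9 Notch genes (members) and for 57 further genes of the pathway by role, with 1 point for each gene, red where the unadjusted p was under 0.05. The Notch genes extend to -4.47, whereas most genes for cleavage, coactivation, corepression and turnover lie close to 0.

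Markers of other cell types were measured in the same libraries. Of 13 endothelial markers 7 were measured, with a summed level of 43.1 to 47.8 CPM in young and 33.3 to 44.9 CPM in old. The defining endothelial genes Pecam1, Kdr and Vwf did not exceed 0.773 CPM in any library, and Cdh5, Tie1, Emcn, Cldn5, Nos3 and Sox17 were not analysed here. Flt1 had 2.64, 7.56 and 10.5 CPM in young and 0.804, 0.154 and 0.448 CPM in old libraries, without overlap (log2 fold change -3.87, adjusted p 0.0732 in edgeR, 1.0e-06 in DESeq2). The old values of Flt1 rest on 40, 8 and 24 counts. Erg also did not overlap (log2 fold change -2.03, adjusted p 0.159 in edgeR, 0.0194 in DESeq2). Of the 7 endothelial markers 4 had a lower and 3 a higher mean in old. Egfl7, the largest part of the sum in 5 of the libraries, was between 12.9 and 31.7 CPM (log2 fold change -0.16), and Tek averaged 8.30 CPM in young and 14.2 CPM in old (log2 fold change 0.77). The 8 measured of 9 fibroblast markers summed to 739, 507 and 266 CPM in young replicates 1, 2 and 3 and to between 1189 and 2177 CPM in old. The smooth muscle sum was 12188, 17625 and 22806 CPM in the same young libraries, so young replicate 3, where Notch3, Jag1 and the Hey genes were highest, had the highest smooth muscle and the lowest fibroblast sum. Old replicate 3 did not share this, with a smooth muscle sum of 3870 CPM next to 6003 and 3803 CPM in the other old libraries. The part of these markers in the differences of the Notch genes was not tested. The 3 measured of 6 mural and pericyte markers, mostly Pdgfrb, summed to 901, 1080 and 1291 CPM in young replicates 1, 2 and 3 and to 666, 1080 and 1510 CPM in old replicates 1, 2 and 3. That sum was highest in replicate 3 of both groups, as were the 7 Notch genes, but of its genes only Pdgfrb had this order. Cspg4 had 273, 246 and 440 CPM in young and 163, 102 and 97.8 CPM in old libraries, without overlap. Its log2 fold change was -1.40 (adjusted p 0.0853 in edgeR, 0.000341 in DESeq2). Abcc9 stayed at 0.975 CPM or less and had its lowest young value in replicate 3. The part of these markers in the order of the Notch genes was not tested. Rgs5, Kcnj8 and Higd1b were not analysed here. Of 10 skeletal muscle markers Myh1, Myh2 and Acta1 were measured. They summed to 161, 329 and 382 CPM in young and to 25.4, 20.5 and 44.8 CPM in old replicates 1, 2 and 3. This sum too was highest in replicate 3 of both groups. No single gene of it was, since Myh1 and Myh2 were highest in young replicate 2 and Acta1 was lowest in old replicate 3. Its part in the order of the Notch genes was not tested. The 3 macrophage markers stayed at 16.8 CPM or less and the 3 Schwann cell markers at 85.4 CPM or less.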

How the data were processed

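The authors prepared stranded mRNA libraries from VSM cells of 3 young and 3 old rats. The deposited values are raw gene counts, whole numbers without normalization. Per the labels and the Methods, adapter trimming used Trim Galore 0.6.7 with cutadapt 3.5, and reads were aligned with STAR 2.7.10b to the rat assembly Rnor 6.0 and counted with featureCounts (Subread 2.0.8). The Methods name a RefSeq annotation, whereas the deposited table carries Ensembl gene identifiers, and how these were assigned is not stated. How strand, mates and multi-mapping reads were treated in counting is not stated. Each of the 14475 genes reached 10 counts in 3 or more libraries, so the table holds no gene below that. Total counts per library were 44235674 to 59700887, and intervals cover counting error only, with each count taken as a separate fragment.

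Age groups were compared over all genes in R 4.3.3 with edgeR 4.0.16 (TMM, quasi-likelihood F test, Benjamini-Hochberg adjustment, young as reference, no covariate) and a gene was called at adjusted p under 0.05 with a log2 fold change of 1 or more in size. Standard errors were derived from the fold change and the F statistic. DESeq2 1.42.0 (Wald test, independent filtering at 0.05) and limma-voom (limma 3.58.1) were alternatives, and log2 CPM used a prior count of 2. The steps were tested on simulated counts. All genes of the Notch list were named, and of the other pathway genes those with an unadjusted p under 0.05 and a log2 fold change of at least 1 in size, up to 6 more with the lowest p, and a few fixed ones (Notch4, Lfng, Nrarp, Acta2, Myh11 and Pdgfrb among those measured). The genes, lists and tests were chosen with earlier results of these data known. Promoters were read from RefSeq (GRCr8), which is not the build of the counts. Replicate numbers were not used to pair libraries, except in 1 alternative edgeR fit with the replicate number as a block.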

Additional observations from a re-analysis of the deposited data

How the results depend on the processing

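The 9 Notch genes kept the direction of their log2 fold change under RLE size factors, library size only, halved counts, the replicate block, DESeq2 and limma-voom, as did the 7 that passed a minimum of 1 CPM in 3 libraries (all but Hey1 and Heyl). With a library left out, Hes1 ranged from -1.32 to 0.39 and Hey1 from -3.89 to 0.49 in edgeR, both positive without young replicate 3 (0.39 and 0.51 in DESeq2). The number of Notch genes called was 0 in edgeR under each of these settings and with any library left out (0% to 5.06% of all genes), 1 (Hey2) at an adjusted p under 0.1 (2.63%), 3 in DESeq2 (5.56%) and 1 to 4 in DESeq2 with a library left out (3.81% to 9.51%), an alternative chosen after seeing the data, as were the summaries of the 9 genes without a library. At an unadjusted p under 0.05 there were 3 Notch genes (22.6% of all genes), 5 with the replicate block (22.5%), 1 to 5 with a library left out in edgeR (14.7% to 32.4%; 1 on leaving out any of old replicate 1, old replicate 2 and young replicate 3) and 1 to 6 in DESeq2 (19.5% to 36.4%). The 10 further pathway genes at that p became 6 to 21 with a library left out in edgeR and 8 to 23 in DESeq2, the highest without old replicate 1, when 32.4% of all genes had an unadjusted p under 0.05 in edgeR. Same-numbered libraries correlated in their deviations at 0.03, 0.26 and 0.26 across genes. Young replicates 2 and 3 correlated best with the old library of the same number, whereas young replicate 1 correlated best with old replicate 2 (0.29). The labels name no pairing, and outside the replicate block the numbers were taken as names only. Depth limits, among others, Hey1, Hey2, Heyl, Nrarp, Neurl1b and Flt1, each with 12 counts or fewer in at least 1 library.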

Other observations

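Count ratios within a library do not depend on the scaling between libraries. For every count of Notch2 there were 0.0123, 0.0453 and 0.439 counts of Notch3 in young replicates 1, 2 and 3 and 0.00466, 0.00382 and 0.0425 in old replicates 1, 2 and 3, so the ratio of these receptor RNAs differed far more between cultures of 1 age than the level of Notch2 did. The ratio of Heyl to Notch3 counts stayed between 0.0357 and 0.124 over the 6 libraries, although Notch3 itself spanned 75.8-fold in CPM. Its lowest value rests on 2 counts of Heyl, and Heyl was already the gene nearest to Notch3. For Hey1 to Notch3 the ratio ranged from 0.0127 in young replicate 1, with 2 counts of Hey1, to 0.162 in old replicate 1, with 12. That of Hey2 to Notch3 ranged from 0.0273 in old replicate 3 to 0.815 in young replicate 1, where Hey2 was present at 128 counts and Notch3 at 157. Hes1 had 0.324 to 1.38 counts for each count of Notch3 in young and 1.79 to 4.85 in old libraries, and Jag1 had 2.40 to 5.15 in young and 3.14 to 12.5 in old. The Hey1 to Heyl ratio was 0.20, 0.595 and 0.752 in young and 1.5, 2.0 and 2.62 in old libraries, without overlap between the groups, though it rests on as few as 2 counts of either gene. These ratios were looked at after the levels had been seen and were not tested.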
